A study of Homo sapiens with 12 samples.

Results

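The insulin-like growth factor (IGF) system was described in cells with and without mitochondrial DNA (mtDNA) through 10 genes, IGF2, IGF1R, IGF2R and IGFBP1 to IGFBP7. Members were all probe sets whose platform annotation lists one of these genes, which gave 22 of the 22283 probe sets and 10 of 13119 genes listed for the array. The 3 probe sets of IGF2 are listed together with the read-through gene INS-IGF2, and the transcripts of these genes cannot be told apart. The genes were taken by symbol, but the family was chosen on the signal changes between ρ° and ρ+ cells of these same arrays. The changes, counts and adjusted p-values below are therefore a description.

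IGF2 and its relative IGF1 are secreted growth factors that signal through IGF1R, a receptor tyrosine kinase. IGF2R, the cation-independent mannose 6-phosphate receptor, takes up IGF2 for breakdown and carries lysosomal enzymes. The binding proteins hold IGFs outside the cell and are cut by dedicated proteases, which frees the growth factor.

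RNA of 4 groups was hybridised to 12 HG-U133A arrays, with 3 arrays for each group. The groups were parental ρ+ (rho+) and mtDNA-less ρ° (rho0) cells of A549, derived from a lung adenocarcinoma, and of 143BTK-, derived from an osteosarcoma and lacking thymidine kinase. The ρ° cells were made with 50 ng/ml ethidium bromide for 3 weeks and kept as a pooled population with no clone selected, and each line stands for 1 tumour. All groups grew in high-glucose medium with 10% serum, 1 mM pyruvate and 50 µg/ml uridine, so binding proteins and growth factors of serum were present in every culture. Per the study's methods the drug was then removed, and cells were frozen, revived and passaged before RNA was taken. Past ethidium bromide exposure and loss of mtDNA came together, and their parts in a change cannot be told apart. In a culture, fewer cells that make a transcript and less transcript per cell cannot be told apart either.

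The values are signals computed per probe set with MAS5, which the authors quantile-normalized within each line. Levels were therefore compared within a line, and a level of one probe set was never set against that of another. The precision is limited by the 3 arrays of a group. Log2 correlations between replicates of a group ran from 0.897 to 0.948. A probe set was tested when its mean log2 signal was among the highest 59% in A549 or 63% in 143BTK-, and the lowest mean signal kept was 18.9 and 12.5. Of the 22 member probe sets, 14 were tested in A549 and 16 in 143BTK-, and each of the 10 genes kept at least 1 probe set in both lines. Changes were tested with limma, and a call means an adjusted p under 0.05 over all probe sets tested. In the platform annotation 0 probe sets list a gene encoded in mtDNA and 2169 list no gene, so the labels were not checked with mitochondrial transcripts.

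The cells were checked against marker genes of their tissue of origin. In A549 ρ° cells 4 of 5 tested epithelial genes were called lower, beside 5.17% of all probe sets tested. Of 20 marker probe sets tested in A549, 4 were called, beside 10.8% of all. On all ρ° arrays 6 lay below and 0 above, beside the 31.8% of all whose groups did not overlap. The summed signal of the 6 epithelial markers was 4924 to 8644 in ρ° and 12714 to 15404 in ρ+ cells. Bright genes weigh most in such sums. KRT18, an epithelial keratin, was lower by a log2 change of -1.36 (limma, adjusted p = 0.00657). KRT19 went from 373.3, 381.4 and 471.4 to 2.1, 5.5 and 3.0, and EPCAM was too dim to be tested in A549. The 8 mesenchymal and bone markers summed to 6322 to 7879 in ρ° and 5050 to 7319 in ρ+ A549 cells. Of their 10 probe sets tested there, 0 were called, with a median log2 change of -0.06. SPARC (200665_s_at) stood at 24.2 to 34.5 in ρ+ and 0.9 to 6.5 in ρ° cells and was too dim to be tested in A549. Of the bone markers, RUNX2, ALPL and COL1A2 were too dim to be tested in 143BTK-. The 3 alveolar markers summed to 63.2 to 103.9 in ρ° and 74.3 to 145.5 in ρ+ A549 cells. Of these, SFTPC, a surfactant protein gene, was below all ρ+ arrays on all ρ° arrays on 215454_x_at, with means of 45.6 and 19.9 in ρ+ and ρ° cells (limma, adjusted p = 0.0910). Its other tested probe set, 38691_s_at, overlapped, with means of 37.8 and 34.0. The part of these shifts in the changes of IGF system genes was not tested.

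In A549, 2 binding protein genes fell in ρ° cells and 1 rose. IGFBP3 was about 7.32-fold lower on its brighter probe set, IGFBP2 was 5.49-fold lower, and IGFBP4 was 2.78-fold higher. These were 4 of 14 member probe sets, beside 10.8% of all probe sets tested in A549, with 1 higher beside 5.59% and 3 lower beside 5.17%. At an unadjusted p under 0.05 limma passed 8 of the 14, beside 27.3% of all. In 143BTK- the limma fit called 0 of 16 member probe sets at the adjusted threshold and 0% of all probe sets tested, while at an unadjusted p under 0.05 it passed 3 of the 16, beside 8.38% of all. A power law global error model was rewritten here and fitted on the 3 ρ+ arrays of each line. The study fitted its model on an independent data set. Without adjustment the rewritten model called 3 of the 16, beside 13.3% of all probe sets, and 7 of the 14 in A549, beside 29.5%. IGFBP3 was higher in ρ° cells of 143BTK- on all arrays, the opposite of A549.

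**Figure D1:**
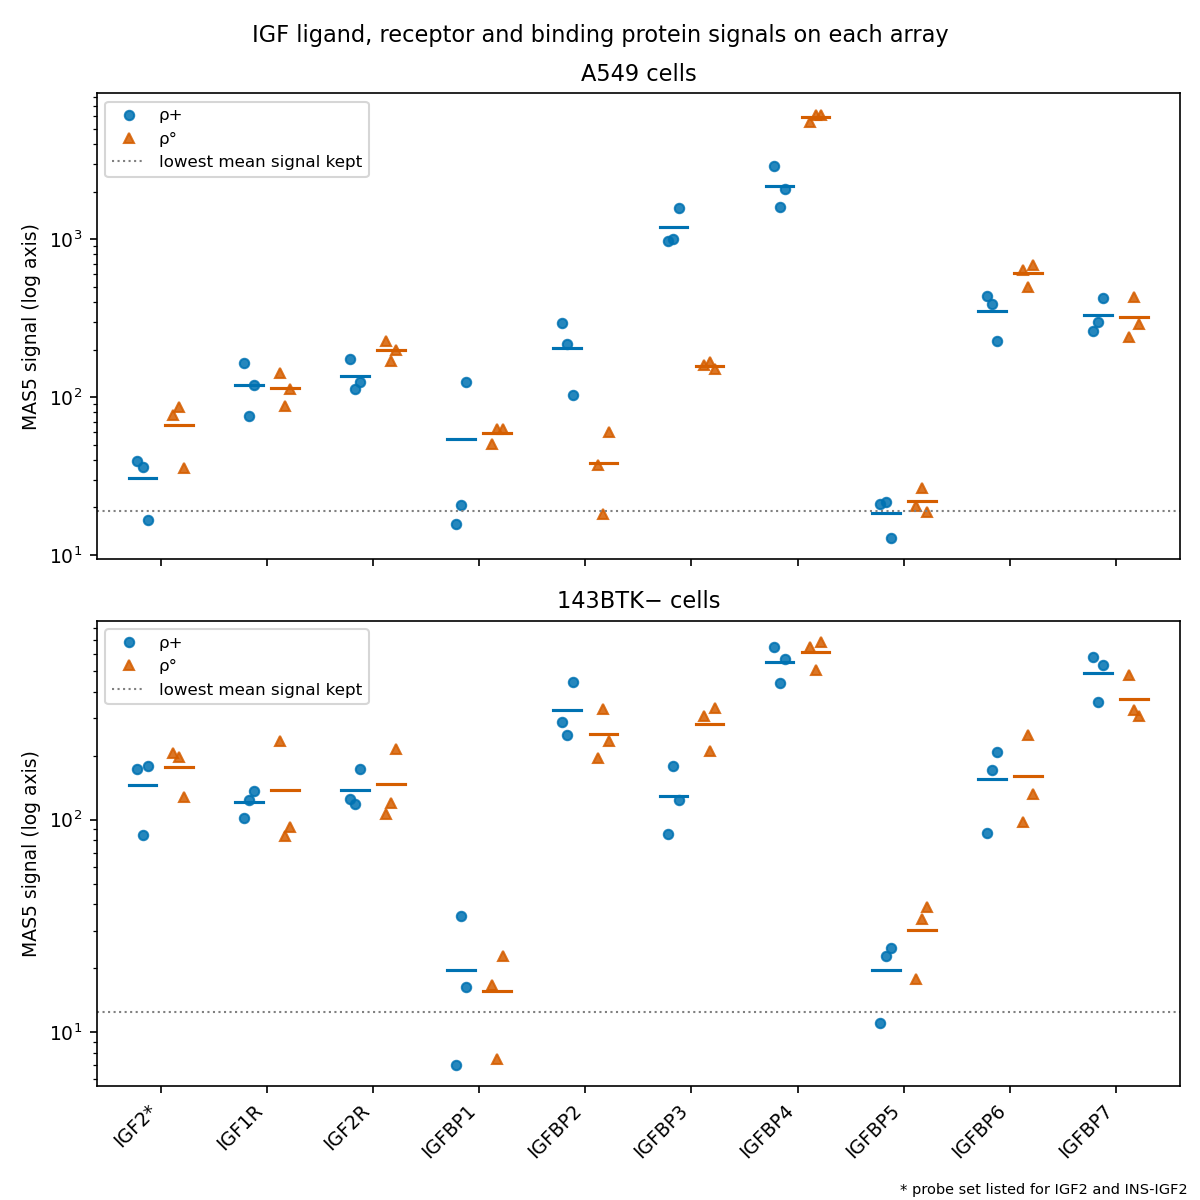
MAS5 signal (log axis) on each array for the brightest probe set of each gene, in A549 (upper panel) and 143BTK- (lower panel). Points are arrays, short lines are the means of 3 arrays, and the dotted line is the lowest mean signal kept. In A549 all ρ° arrays lay below all ρ+ arrays for IGFBP2 and IGFBP3 and above them for IGFBP4 and IGFBP6, and in 143BTK- the groups were apart for IGFBP3 alone among the probe sets drawn.

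The stretches upstream of IGFBP3 and IGFBP4 are shown because these genes moved in opposite directions in A549. RefSeq lists a start site in the table used here for 7 of the 10 genes, and 1 start alone for 6 of them. The 250 bases before the start are given 5′ to 3′ on the gene's strand (GRCh38.p14), at chr7:45921273-45921522 on the minus strand for IGFBP3 and chr17:40443200-40443449 on the plus strand for IGFBP4. Capitals mark matches on either strand to a pair of motifs. One is TATANA, the core promoter box read by TBP. The other is GGGCGG, the box read by Sp1.
IGFBP3: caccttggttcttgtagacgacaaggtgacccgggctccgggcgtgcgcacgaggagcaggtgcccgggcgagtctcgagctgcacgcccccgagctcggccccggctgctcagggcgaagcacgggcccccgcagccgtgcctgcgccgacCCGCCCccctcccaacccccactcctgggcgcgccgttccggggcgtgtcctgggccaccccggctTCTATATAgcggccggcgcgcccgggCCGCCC
IGFBP4: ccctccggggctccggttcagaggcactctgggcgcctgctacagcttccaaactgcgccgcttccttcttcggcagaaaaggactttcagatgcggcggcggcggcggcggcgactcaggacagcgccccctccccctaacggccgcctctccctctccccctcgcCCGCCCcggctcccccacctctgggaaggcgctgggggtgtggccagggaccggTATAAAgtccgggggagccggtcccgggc

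Both windows held a TATANA match near the start site, with 2 overlapping matches on opposite strands in IGFBP3 and 1 in IGFBP4. None of the other member windows read, those of IGF1R, IGF2R, IGFBP2, IGFBP5 and IGFBP6, held TATANA, and 17.7% of the 35116 windows of this length in the table did. The GGGCGG motif was found 2 times in IGFBP3 and 1 time in IGFBP4, and 42.6% of all windows had at least 1. ACGTG, the core of a hypoxia response element, and TGATGNAA, a composite element of ATF4 and C/EBP factors, were found in neither window, and 18.5% and 3.14% of all windows held them. A match of letters is a description and shows no binding.

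IGF2 was the ligand with a probe set bright enough to test, as IGF1 and INS were too dim in both lines. The IGF2 and INS-IGF2 probe set 202409_at read 39.3, 36.3 and 16.6 in A549 ρ+ cells and 77.1, 86.7 and 35.4 in ρ° cells. The lowest ρ° array lay below the highest ρ+ array, so the groups overlapped. The log2 change was 1.11 ± 0.44 (SE, n = 3 arrays a group; limma, adjusted p = 0.137). In 143BTK- the same probe set read 173.0, 85.0 and 179.0 in ρ+ and 205.7, 196.4 and 127.7 in ρ° cells, with a log2 change of 0.32 ± 0.35 (SE; limma, adjusted p = 0.834). The other IGF2 probe sets, 202410_x_at and 210881_s_at, had group means of 2.2 to 4.43 in both lines and were not tested.

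The signalling receptor IGF1R did not pass the test in either line. Its probe set 203627_at read 163.5, 76.1 and 119.7 in ρ+ and 142.1, 87.8 and 112.9 in ρ° A549 cells, a log2 change of -0.03 ± 0.31 (SE). Its probe set 203628_at gave 0.10 ± 0.38 (SE) in A549. In 143BTK- the changes were 0.03 ± 0.39 and 0.35 ± 0.51 (SE), and the ρ° arrays were spread widely, from 84.1 to 235.7 on 203627_at and from 60.5 to 247.4 on 203628_at. Its remaining probe set, 208441_at, was too dim to be tested.

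IGF2R gave positive changes on both probe sets in both lines, and none was called. In A549, 201392_s_at read 68.1, 33.6 and 27.4 in ρ+ and 138.1, 53.9 and 86.4 in ρ° cells, and 201393_s_at read 174.4, 112.5 and 124.0 in ρ+ and 226.6, 169.6 and 198.6 in ρ° cells. On each, 1 ρ+ array, replicate A, was above the lowest ρ° array. The log2 changes were 1.12 ± 0.42 and 0.55 ± 0.23 (SE; limma, adjusted p = 0.117 and 0.163). In 143BTK- they were 0.40 ± 0.26 and 0.04 ± 0.32 (SE; limma, adjusted p = 0.729 and 0.989).

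IGFBP1, whose liver form is under insulin control, depended on 1 array. It read 15.8, 20.7 and 125.5 in ρ+ and 50.5, 63.1 and 62.9 in ρ° A549 cells. Replicate C of the ρ+ cells was above all ρ° arrays and the other 2 ρ+ arrays were below them. The log2 change was 0.76 ± 0.64 (SE; limma, adjusted p = 0.483), and without ρ+ replicate C it was 1.69 (limma, adjusted p = 0.00974). In 143BTK- the signals were 7.0 to 35.3 in ρ+ and 7.5 to 22.9 in ρ° cells, which is close to the lowest level kept.

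IGFBP2, a binding protein with some preference for IGF2, fell in A549 ρ° cells. It read 295.0, 217.0 and 103.8 in ρ+ and 36.9, 18.2 and 59.9 in ρ° cells. All ρ° arrays were below all ρ+ arrays. The log2 change was -2.46 ± 0.47 (SE; limma, adjusted p = 0.0108). Array B of the ρ° cells, at 18.2, was under the lowest mean signal kept, and with 16 or 64 added before the log2 the change was -1.99 or -1.35. In 143BTK- it read 287.8, 251.5 and 446.0 in ρ+ and 195.1, 330.7 and 235.0 in ρ° cells, with overlapping groups and a log2 change of -0.36 ± 0.30 (SE; limma, adjusted p = 0.784).

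IGFBP3, the main IGF carrier of serum, had the largest change of the members tested in A549. Its probe set 210095_s_at read 980.6, 1001.5 and 1586.9 in ρ+ and 158.8, 166.8 and 149.8 in ρ° cells, and 212143_s_at read 334.1, 287.0 and 415.3 in ρ+ and 88.5, 70.2 and 85.0 in ρ° cells. The groups were far apart on both probe sets, and the ρ° arrays were close together. The log2 changes were -2.87 ± 0.22 and -2.08 ± 0.22 (SE; limma, adjusted p = 0.000173 and 0.000633), which is 7.32-fold and 4.22-fold lower. With 64 added before the log2 they were -2.46 and -1.49.

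In 143BTK- the same probe sets stood higher in ρ° cells. The signals of 210095_s_at were 85.4, 178.8 and 123.2 in ρ+ and 306.5, 210.0 and 333.6 in ρ° cells, and those of 212143_s_at were 50.8, 80.7 and 83.8 in ρ+ and 128.3, 148.0 and 173.8 in ρ° cells. The groups did not overlap on either probe set. The log2 changes were 1.17 ± 0.32 and 1.09 ± 0.29 (SE), or 2.25-fold and 2.13-fold, and neither passed the adjusted threshold (limma, adjusted p = 0.427 and 0.39). Markers also stood apart in this line. Of 20 marker probe sets tested, 4 were above and 1 was below on all ρ° arrays, beside the 14.8% of all whose groups did not overlap. In limma 0 passed the adjusted threshold and 5 passed at an unadjusted p under 0.05, beside 8.38% of all. CDH2, a cadherin of mesenchymal cells, gave a log2 change of 0.76 on 203441_s_at, and SFTPC gave 0.95 on 38691_s_at. The SFTPC probe set 215454_x_at was too dim to be tested in this line. COL1A1, a collagen gene active in bone, read 4.4 to 12.5 in ρ+ and 21.9 to 31.5 in ρ° cells on 202312_s_at, and the epithelial keratin gene KRT7 read 9.1 to 12.7 and 16 to 46 on 209016_s_at. On both probe sets the ρ+ level was under the lowest mean kept. The brighter COL1A1 probe set 217430_x_at overlapped, with means of 87.0 in ρ+ and 87.8 in ρ° cells. NKX2-1, an alveolar transcription factor gene, was the one below. The summed signals were 7262 to 8405 in ρ° and 7024 to 7953 in ρ+ cells for mesenchymal and bone markers, and 2982 to 5022 against 4193 to 5143 for epithelial markers. Most of each sum was 1 gene, VIM at 5598 to 7106 and KRT18 at 2832 to 5027, so the sums say little of other markers. Their part in the values of IGFBP3 was not tested. The IGFBP3 probe sets were 2 of 16 member probe sets whose groups did not overlap in 143BTK-, beside 14.8% of all tested. In A549 the count was 5 of 14, beside 31.8%, and held IGFBP2, both probe sets of IGFBP3, IGFBP4 and IGFBP6.

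IGFBP4, which is cut by the protease PAPPA, rose in A549 ρ° cells. It read 2896.4, 1593.5 and 2068.1 in ρ+ and 5494.4, 6146.2 and 6100.5 in ρ° cells. Every ρ° array was above every ρ+ array. The log2 change was 1.48 ± 0.20 (SE; limma, adjusted p = 0.00206). In 143BTK- the groups overlapped, with 651.8, 439.7 and 569.0 in ρ+ and 650.4, 504.0 and 685.9 in ρ° cells and a log2 change of 0.15 ± 0.23 (SE; limma, adjusted p = 0.885).

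IGFBP5 was at the lower limit of the measurement. Of its 5 probe sets 1 was tested in A549 and 3 in 143BTK-, and the highest signal of any of them in A549 was 29.2. In 143BTK- the highest group mean was 35.0, on 211959_at, whose ρ° arrays ran from 8.2 to 71.2. No probe set of IGFBP5 was called, and the standard errors of its 4 tested log2 changes were 0.43 to 0.69.

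IGFBP6, which binds IGF2 in preference to IGF1, was higher in A549 ρ° cells without passing the threshold. It read 436.6, 389.9 and 227.3 in ρ+ and 642.5, 496.1 and 688.3 in ρ° cells. The groups did not overlap, and the log2 change was 0.83 ± 0.26 (SE; limma, adjusted p = 0.0656). In 143BTK- it read 86.6, 171.8 and 209.2 in ρ+ and 97.5, 250.6 and 131.4 in ρ° cells, a log2 change of 0.01 ± 0.43 (SE).

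IGFBP7, a secreted protein with low affinity for IGFs, gave small changes in A549. The log2 changes of 201162_at and 201163_s_at were -0.05 ± 0.26 and -0.13 ± 0.25 (SE) there. In 143BTK- they were -0.41 ± 0.27 and -0.75 ± 0.30 (SE; limma, adjusted p = 0.731 and 0.576). On 201163_s_at the 143BTK- arrays read 340.6, 177.3 and 250.1 in ρ+ and 179.0, 115.5 and 154.7 in ρ° cells, and the highest ρ° array was just above the lowest ρ+ array. Its remaining probe set, 213910_at, was too dim to be tested.

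**Figure D2:**
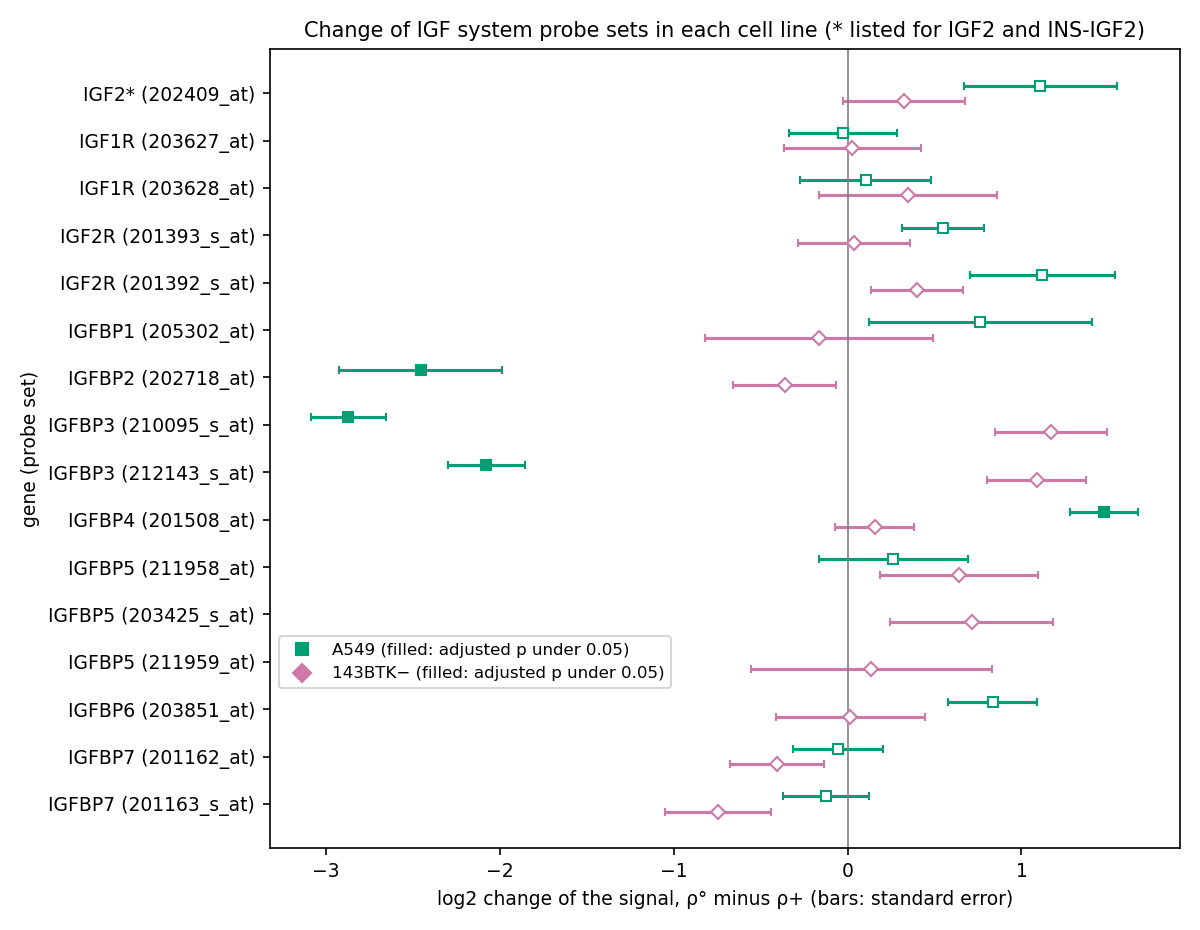
Log2 change of the signal (ρ° minus ρ+, horizontal axis) for each member probe set tested, in A549 (squares) and 143BTK- (diamonds), with bars for the standard error. Filled symbols passed the adjusted threshold. IGFBP3 lies left of 0 in A549, at -2.87 and -2.08, and right of 0 in 143BTK-, at 1.17 and 1.09.

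Whether the change differed between the lines was tested as A549 minus 143BTK- in a fit of all 12 arrays. Of 14 member probe sets, 3 passed, beside 1.91% of all probe sets tested. For IGFBP3 the difference was -4.04 ± 0.40 and -3.17 ± 0.36 (log2, SE; limma, adjusted p = 0.000266 and 0.000715), and it passed under each of 23 alternatives, the 12 single arrays left out and 11 others. For IGFBP4 it was 1.32 ± 0.30 (limma, adjusted p = 0.0396), but it failed without any one of 9 of the 12 arrays, with adjusted p up to 0.111, and was kept only without A549 ρ+ A, 143BTK- ρ° C or 143BTK- ρ+ B. For IGFBP2 it was -2.09 ± 0.62 (limma, adjusted p = 0.0926), which missed the threshold. It passed without A549 ρ+ replicate C, at -2.52 (limma, adjusted p = 0.0397), and with replicate C of both ρ+ groups left out, at -2.76 (limma, adjusted p = 0.0341), and under no other alternative tried.

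The mean change of the lines was called for 3 of 14 member probe sets, beside 3.67% of all tested. None of these was called in 143BTK- alone, where IGFBP4 gave 0.15, IGFBP2 -0.36 and IGFBP3 1.17. The means therefore rest largely on A549. IGFBP4 rose by 0.82 ± 0.15 (log2, SE; limma, adjusted p = 0.0136) and passed with every array left out in turn. IGFBP2 fell by 1.41 ± 0.31 on the log2 scale (limma, adjusted p = 0.0255) and failed without 5 of the 12 arrays, replicates A and B of either A549 group and ρ° replicate A of 143BTK-, with adjusted p up to 0.0688. IGFBP3 on 210095_s_at gave -0.85 (limma, adjusted p = 0.0363), a mean of changes of opposite sign, and failed without 8 of the 12 arrays, with adjusted p up to 0.0895. It was kept without A549 ρ+ A, 143BTK- ρ° C, ρ+ A or ρ+ C. On 212143_s_at the mean change was -0.50 (limma, adjusted p = 0.137), and it was called under 0 of 23 alternatives.

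For an order of levels over the 4 groups, all 12 arrays were quantile-normalized together, and no test was made. IGFBP3 (210095_s_at) was highest in A549 ρ+ cells at 968 to 1510, followed by 143BTK- ρ° cells at 204 to 327. A549 ρ° cells at 154 to 171 and 143BTK- ρ+ cells at 84.6 to 174 overlapped. IGFBP4 stood at 5221 to 5740 in A549 ρ° cells and 1517 to 2691 in A549 ρ+ cells, above both groups of 143BTK-, which overlapped between 433 and 678. IGFBP2 overlapped among both groups of 143BTK- and A549 ρ+ cells, from 106 to 439, and lay below them at 16.4 to 59.8 in A549 ρ° cells.

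The protein-coding genes next to the members were also read. IGFBP1 and IGFBP3 are neighbours on chromosome 7, and in A549 their log2 changes were 0.76 and -2.87. TNS3, which encodes a focal adhesion protein and lies on the other side of IGFBP3, gave -0.30 (limma, adjusted p = 0.493). The median of all tested probe sets of chromosome 7 was -0.28 in A549 and 0.09 in 143BTK-, and IGFBP3 was called in A549 with changes centred on it. IGFBP2 is next to RPL37A and IGFBP5 on chromosome 2, and RPL37A, a ribosomal protein gene, gave -0.06 in A549 (limma, adjusted p = 0.714). IGFBP4 lies between TOP2A, a topoisomerase of dividing cells, at -0.57 (limma, adjusted p = 0.345), and TNS4 at 0.66 (limma, adjusted p = 0.268).

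The probe sets most like IGFBP3 (210095_s_at), by Pearson's r of log2 signals centred in each line over the 12 arrays, were those of COX5A at 0.957, COX4I1 at 0.930 and LSM5 at 0.930. COX5A and COX4I1 encode nuclear subunits of cytochrome c oxidase. Their log2 changes were -0.75 and -0.63 in A549 and 0.28 and 0.21 in 143BTK-. The points share arrays and groups, and r is given as a description.

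Other genes of the pathway were taken from lists of 52 genes, 45 of which have a probe set that lists them alone and 40 of which were tested in A549. There 4 genes rose and 4 fell. By probe set, 10 of 58 were called beside the 10.8% of all, with 4 higher beside 5.59% and 6 lower beside 5.17%. In 143BTK- limma called 0 of 40 genes, beside 0% of all probe sets. At an unadjusted p under 0.05, 2 of 63 probe sets passed there, beside 8.38% of all, and they belonged to CCN3 and STC2, 2 genes, both higher. The median log2 change over the probe sets of the lists was -0.11 in A549 and 0.13 in 143BTK-, beside -0.004 and -0.002 for all probe sets tested and 0.18 and 0.15 for the members.

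Among 7 genes of IGFBP proteases and their inhibitors, 2 rose and 1 fell in A549. Of their 11 probe sets tested, 2 were called higher beside 5.59% of all and 2 lower beside 5.17%. STC1, a stanniocalcin that inhibits PAPPA, read 93.3, 134.4 and 141.2 in ρ+ and 26.2, 18.1 and 29.5 in ρ° cells on 204595_s_at. All ρ° arrays were below all ρ+ arrays, with a log2 change of -2.33 ± 0.30 (SE; limma, adjusted p = 0.00163), and 204597_x_at gave -1.38 (limma, adjusted p = 0.0127). In the mean change of both lines, STC1 204595_s_at was the 1 probe set called of 54 of the lists, beside 3.67% of all. There 204597_x_at was not called (limma, adjusted p = 0.169). In 143BTK- the STC1 groups overlapped, with log2 changes of -0.44 and -0.25 on these probe sets and 0.30 on 204596_s_at.

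PAPPA, the protease that cuts IGFBP4, read 70.7, 62.7 and 71.3 in ρ+ and 432.7, 270.8 and 89.2 in ρ° A549 cells on 201982_s_at. The arrays did not overlap, but ρ° replicate C was close to the ρ+ cells. The log2 change was 1.68 ± 0.47 (SE; limma, adjusted p = 0.0451), and on 201981_at it was 1.14 ± 0.52 (SE; limma, adjusted p = 0.187). ADAM12 is a metalloprotease that acts on IGFBP3 and IGFBP5. In A549 it read 12.3, 15.3 and 13.8 in ρ+ and 59, 32.2 and 49.2 in ρ° cells on 202952_s_at (limma, adjusted p = 0.0202). There the ρ+ level was under the lowest mean kept. Its other probe sets were too dim to be tested in A549. Of them, 204943_at and 215613_at overlapped, and 213790_at was higher on all ρ° arrays.

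**Figure D3:**
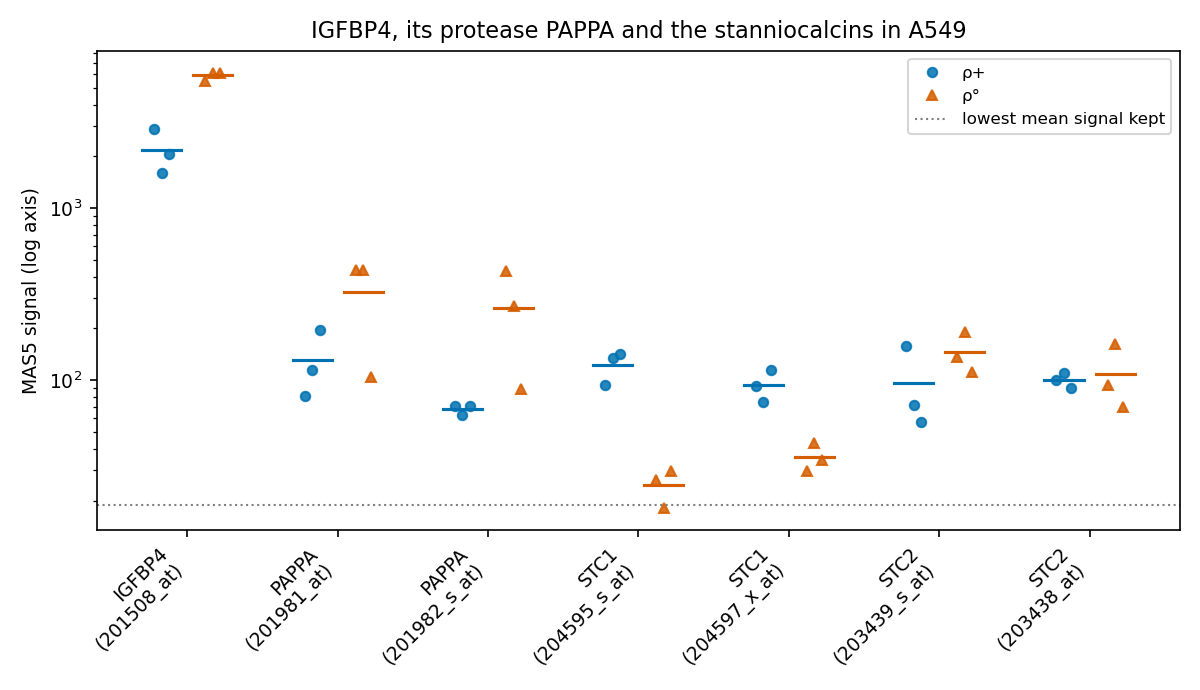
MAS5 signal (log axis) in A549 on each array for IGFBP4, its protease PAPPA and the stanniocalcins STC1 and STC2, by probe set, with ρ+ as circles, ρ° as triangles, short lines for the means and a dotted line for the lowest mean signal kept. IGFBP4 and PAPPA 201982_s_at were higher and both STC1 probe sets lower on all ρ° arrays, while PAPPA 201981_at and both STC2 probe sets overlapped.

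Downstream of the receptors in A549, the adaptor gene SHC1 rose by a log2 change of 1.20 on 201469_s_at (limma, adjusted p = 0.0423). Its probe set 214853_s_at gave 0.23 (limma, adjusted p = 0.328). GRB14, an adaptor that binds insulin and IGF receptors, rose by 1.28 (limma, adjusted p = 0.0237). GRB10, a related adaptor, gave -0.89 on 209409_at (limma, adjusted p = 0.043), and -0.37 and -0.40 on other probe sets, which were not called. RHEB, the GTPase that activates mTORC1, gave -0.74 and -0.75 on its called probe sets (limma, adjusted p = 0.0205 and 0.0303). GRB10 and RHEB lie on chromosome 7, whose median log2 change was -0.28 in A549, and their values were not centred on it. EIF4EBP1, a translation repressor controlled by mTORC1, gave -0.71 (limma, adjusted p = 0.039). In 143BTK- the probe sets called in A549 gave -0.14 for SHC1, 0.03 for GRB14 and 0.37 for GRB10. They gave 0.17 and 0.20 for RHEB and 0.46 for EIF4EBP1, and none was called there. Of the 10 pathway probe sets called in A549, only STC1 204595_s_at passed whichever array was left out. The other 9 were all lost without ρ° replicate A, and some without other arrays, with highest adjusted p from 0.0618 to 0.166.

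The member calls in A549 are of a family chosen on these same changes, so their steadiness cannot be weighed against that of the lists. IGFBP2, both probe sets of IGFBP3 and IGFBP4 passed in limma under every alternative of the A549 fit, with highest adjusted p of 0.049, 0.00462, 0.00658 and 0.0243.

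**Figure D4:**
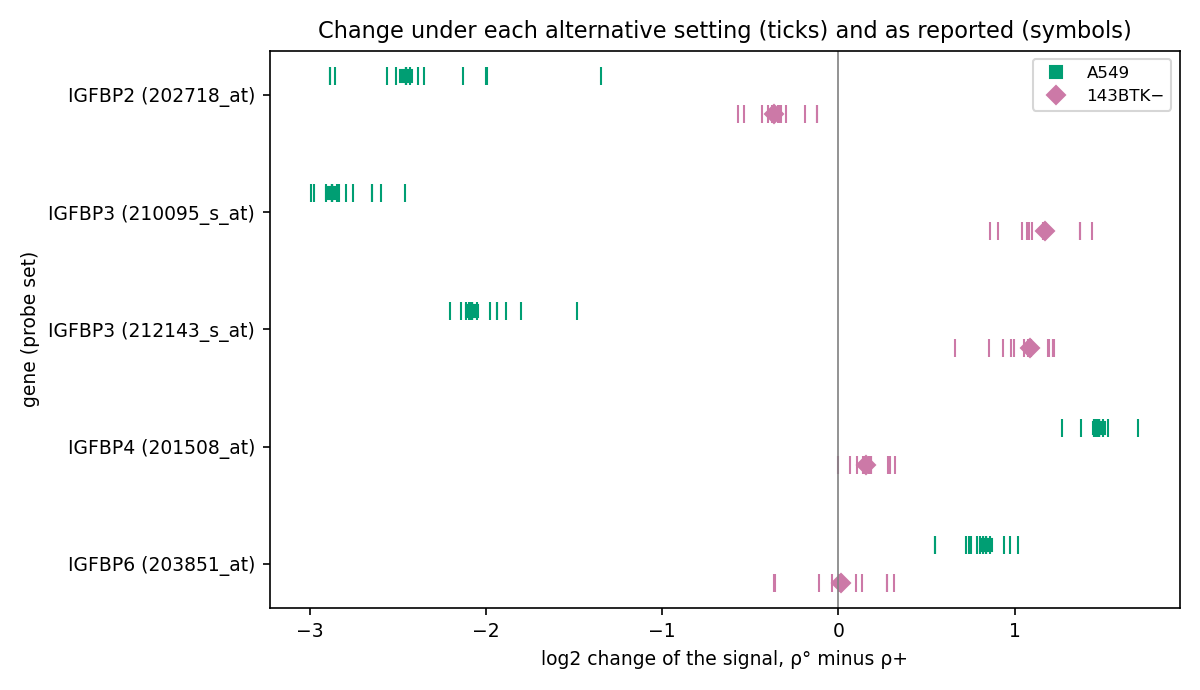
Log2 change (ρ° minus ρ+) of 5 binding protein probe sets under each alternative setting (ticks) and as reported (symbols), in A549 (squares) and 143BTK- (diamonds). IGFBP3 stayed between -2.99 and -1.49 in A549 and between 0.66 and 1.44 in 143BTK-, while IGFBP6 in 143BTK- fell on both sides of 0.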

How the data were processed

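Total RNA of 12 cultures was hybridised to HG-U133A arrays, 3 for each line and mtDNA state, grouped by the labels. The intensity values are linear MAS5 signals that the authors computed from the array images, quantile-normalized on the 6 arrays of a line, and deposited. Per the study's methods each array came from a separate RNA extraction of 12 µg.

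The authors' removal of probe sets called Absent was replaced by keeping the 63% (143BTK-) or 59% (A549) of probe sets with the highest mean log2 signal, 14038 and 13147, about the shares the study kept. The test was limma 3.58.1 (R 4.3.3) on log2 signals (lmFit, eBayes with intensity trend, two-sided, no offset), with Benjamini-Hochberg adjustment over all probe sets kept. Each line's fit had 4 residual degrees of freedom, where an exact permutation of 1 value could not go below p = 0.1. A fit of all arrays on the 12184 probe sets kept in both lines gave the mean change and the difference. The script was tested on simulated data.

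Gene names are those of the platform annotation. Named genes were all member probe sets, the pathway genes called, the 3 genes most like the member of largest change, and markers from a list. Neighbouring genes, CCN3 and STC2 were named outside that rule, after their values were seen. The members and lists were chosen with earlier results of these data known. Sequences and neighbours come from RefSeq (GRCh38.p14). Alternatives were to test all probe sets, to set a minimum mean signal of 100, an offset of 16 or 64, median scaling, quantile normalization over 12 arrays, no trend, a replicate block, chromosome centring, single arrays left out and a rewritten power law global error model. Leaving out pairs of arrays, and the arrays left out for pathway genes, were chosen after seeing the data. Figures used matplotlib 3.10.9.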

Additional observations from a re-analysis of the deposited data

Results flagged for a closer look

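The change between ρ° and ρ+ cells differed between the lines for 3 member probe sets, by limma's test of A549 minus 143BTK- at the adjusted threshold. The difference was -4.04 for IGFBP3 on 210095_s_at and -3.17 on 212143_s_at (limma, adjusted p = 0.000266 and 0.000715), with all ρ° arrays below ρ+ in A549 and above ρ+ in 143BTK- on both. It was 1.32 for IGFBP4 (limma, adjusted p = 0.0396), with all ρ° arrays above ρ+ in A549 and overlapping groups in 143BTK-.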

How the results depend on the processing

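The 4 calls in A549 were kept under each limma alternative, and the count was 4 to 5 with single arrays left out. IGFBP6 joined at a mean signal of at least 100 (5 calls) and without ρ+ replicate A, and IGFBP1 joined without ρ+ replicate C. In 143BTK- limma called 0 members under every alternative. The rewritten power law global error model, at a level of 0.05 per gene without adjustment, called 7 members in A549 and 3 in 143BTK-, where IGFBP3 was higher on both probe sets and IGFBP7 lower. The count for the mean change was 1 to 3 with single arrays left out, and 2 with no trend, with chromosome centring and with either pair of arrays left out. IGFBP4 stayed called in all of them. The count for the difference was 2 to 3, with both probe sets of IGFBP3 called under every alternative, and IGFBP4 lost its call with no filter, no trend, chromosome centring and both pairs of arrays left out, while IGFBP2 joined without A549 ρ+ replicate C and without both ρ+ C arrays. Counts over all probe sets also moved. The family was chosen on the changes in these arrays, so the steadiness of its counts cannot be weighed against theirs. In A549 1415 became 766 with no trend and 432 to 1909 with single arrays left out. The mean change went from 447 to 232 with no trend, 266 with chromosome centring and 100 to 546 with single arrays left out. The difference went from 233 to 128 with no trend and 61 to 310 with single arrays left out. The power law model called 3883 probe sets in A549 and 1863 in 143BTK-. The cause of these shifts was not tested.

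The labels do not say whether the replicate letters pair the cultures, and the correlations did not settle it. Deviations of same-letter arrays correlated at 0.357, -0.105 and -0.014 in 143BTK- and 0.104, 0.052 and 0.085 in A549. Across letters in 143BTK-, ρ° B and ρ+ C correlated at 0.386, and ρ° A and ρ+ C at -0.467. In A549 each ρ° array correlated best with the ρ+ array of its own letter, which was not so in 143BTK-. With the replicate block, 6 members were called in A549 (IGF2 and IGF2R joined), 0 in 143BTK-, 1 in the mean change (IGFBP2 and IGFBP3 were lost, limma adjusted p = 0.0512 and 0.0657) and 3 in the difference.

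Of the single log2 changes, 445 stayed on their side under the alternatives, 6 became called, 0 lost a call and 33 changed sign, all of them on probe sets that were not called. Centred on the chromosome, IGF1R 203627_at gave 0.0668 in A549 and -0.16 in 143BTK-, IGF2R 201393_s_at -0.00396 and IGFBP6 -0.0346 in 143BTK-. Without both ρ+ C arrays, A549 gave 0.14 and 0.0817 for IGFBP7 and 0.00712 and -0.28 for IGF1R. Without 143BTK- ρ+ C and ρ° B, IGFBP6 gave -0.11 and IGFBP1 0.31. With single arrays left out, A549 gave -0.29 to 0.14 and -0.31 to 0.0817 for IGFBP7 (201162_at, 201163_s_at) and -0.32 to 0.23 and -0.28 to 0.44 for IGF1R (203627_at, 203628_at). In 143BTK- these ranges were -0.27 to 0.23 for IGF2R 201393_s_at, -0.00218 to 0.29 for IGFBP4, -0.0263 to 0.54 for IGF2, -0.45 to 0.30 and -0.0324 to 0.98 for IGF1R, -0.37 to 0.31 for IGFBP6, -0.76 to 0.41 for IGFBP1 and -0.63 to 0.93 for IGFBP5 211959_at. Signal over background limits IGFBP5, IGFBP1 in 143BTK- and the dim probe sets of IGF2.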
